A study of Mus musculus with 18 samples.

Results

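Of 32195 autosomal windows of 1 kb (tiles) that could be read in all 18 mouse samples, 506 were both dense in CpGs and methylated in every fibroblast sample, and these 506 tiles were followed from fibroblasts through reprogramming cells to pluripotent cells. A tile entered this set when 30 or more of its CpGs had 5 or more reads in at least 1 sample. Its methylation level also had to be 60% or more in each of the 6 samples of mouse embryonic fibroblasts (MEF). The level is the share of methylated reads among all reads of the tile's CpGs. The set was thus chosen by the fibroblast values themselves, and every comparison with MEF below is a description without a test. The 506 tiles made up 7.87% of the 6429 dense autosomal tiles, while the other 5923 had a median level of 0.686% ± 0.384 in MEF female samples (SD, n = 4). The 506 tiles held 30 to 57 CpGs counted in this way, with a median of 34, and 65 of them held exactly 30. CpG numbers of tiles count only CpGs read in this way throughout, and not all CpGs of the DNA. Just below that limit lay 81 autosomal tiles of 29 CpGs that met the MEF threshold.

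The data came from reduced representation bisulfite sequencing (RRBS), which enriches CpG-rich fragments of genomic DNA and reads unmethylated cytosines as thymines. The labels name 7 groups by cell type and sex: MEF female (n = 4), MEF male (n = 2), female reprogramming cells with the surface antigen SSEA1 (SSEA1+, n = 2) and without it (SSEA1-, n = 2), female induced pluripotent stem cells (iPSC female, n = 2), female embryonic stem cells (ESC female, n = 4) and male embryonic stem cells (ESC male, n = 2). The sources used here give no strain, culture, passage, age or reprogramming factors. The labels do not say whether samples of a group came from separate animals, lines or cultures, so p-values reflect only how far these samples spread, and that spread may be technical. The series title names the reactivation of the X chromosome during reprogramming as its question. No expression was measured, so the labelled cell types could not be set against marker genes.

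Total reads over CpGs ranged from 11424460 to 62920167 per sample. A member tile had a median of 352 reads per sample, and the shallowest value of a member rested on 16. The samples fell into 3 sets by how many of their CpGs had reads on both strands: all ESC samples with MEF female 1 and MEF male 2 (9.03 to 11.7%), the SSEA1+ and SSEA1- samples with MEF female 2 and MEF male 1 (15.2 to 16.05%), and the iPSC samples with MEF female 3 and 4 (7.25 to 7.46%). These are called strand sets here. The labels name no batch behind them, and what sets them apart is not known. The split runs with the groups, so iPSC against ESC and iPSC against SSEA1+ also compare strand sets, while ESC female against ESC male and SSEA1+ against SSEA1- lie within 1 set. Over 4428 unmethylated dense tiles the median level was 3.39% and 3.58% in the iPSC samples and at most 0.827% in any other sample. What part these differences have in the iPSC values was not tested.

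In mammalian somatic cells most CpGs are methylated and have been lost from the genome over time, so regions that keep many CpGs are usually the unmethylated CpG islands of promoters. Dense and methylated DNA is instead typical of repeated sequences, of some germline gene promoters and of islands inside genes. The promoters of mouse LINE-1 retrotransposons, which move through an RNA copy, are built from short units repeated in tandem, and DNA methylation is known to hold them silent in differentiated cells. Pluripotent cells in culture can carry much less methylation than fibroblasts, and the active X chromosomes of female embryonic stem cells are known to go with a low methylation across the genome.

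Nearly all of the 506 tiles turned out to be copies of a few tandem arrays. The positions of CpGs were compared between tiles, over all shifts and both orientations, and 2 tiles were linked when at least 15 CpGs stood at the same offsets. For 480 tiles (94.9%) another member shared 15 or more CpGs, for the other 26 the best partner shared 7 to 11, and no tile fell between 12 and 14. Links joined 27.1% of all pairs of members, against 0.0370% of the pairs of other dense tiles with 30 to 60 CpGs. At the same limit of 15, 76.8% of the other dense tiles had a partner among themselves. At 20 shared CpGs, 92.9% of members and 20.4% of other dense tiles had a partner of their own kind. The linked tiles formed 5 sets, and in each of them CpGs recurred at 1 main distance: 212 bases (231 tiles on 19 chromosomes), 208 bases (110 tiles), 206 bases (67 tiles), 214 bases (52 tiles) and 204 bases (20 tiles). In the largest set 4710 pairs of CpGs lay exactly 212 bases apart, against a median of 40 for the distances from 100 to 400 bases, and 3117 pairs lay at double that distance. These sets are called arrays here and named by their period, and the remaining 26 tiles are called single tiles. The limit of 15 was chosen after the data were seen. At 12 CpGs the sets merged into 3, of 283, 110 and 87 tiles.

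**Figure D1:**
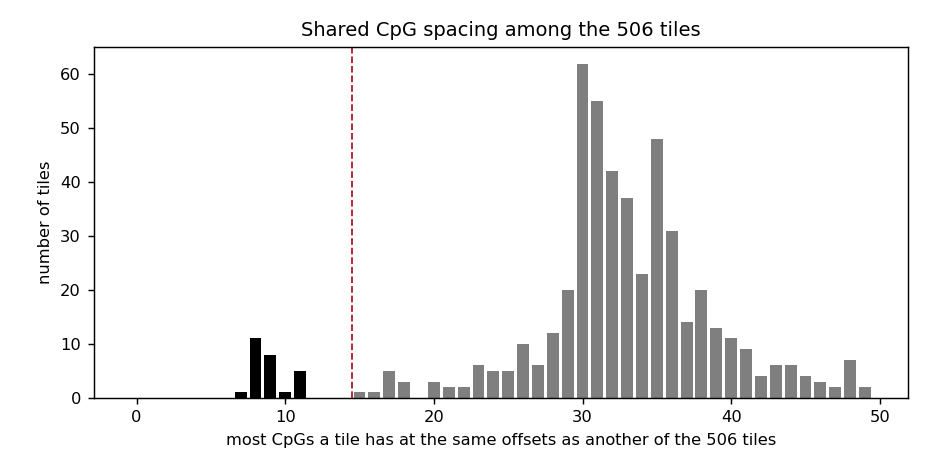
Number of the 506 tiles (vertical axis) by the most CpGs that a tile has at the same offsets as another member (horizontal axis), with black bars for the 26 single tiles and grey bars for the 480 tiles in arrays. The dashed line marks the limit of 15, and no tile lies at 12 to 14 shared CpGs.

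The unit of the 3 largest arrays could be read from promoter sequences of RefSeq (build GRCm38.p6), and it is printed here because nearly all members are copies of such units. A promoter was accepted when at least 90% of its letters repeated at the array's period. It was matched to a tile over a stretch of the promoter's own length that overlapped the tile, in either orientation. At least 80% of the CpGs read in that stretch, and no fewer than 8, had to fall on the promoter's CpGs. A single such stretch was enough, so a match does not cover the whole tile. The promoter of Gm35240 matched 225 of the 231 tiles of the 212-base array, that of A230004M16Rik matched all 110 tiles of the 208-base array, and that of Gm5636 matched all 67 tiles of the 206-base array. Among the members outside its own array the last of these matched 2 tiles and the other promoters none, and none of the 3 matched any of the 5923 other dense tiles. The sequences are 1 period long, and capitals mark the CpGs with at least 100 reads in every sample, summed over the tiles of the array. The remaining letters are those of the RefSeq copy, since the methylation tables give only the CpGs of each tile. The 3 units come from chr12:77553461-77553672 (plus strand), chr11:41710094-41710301 (plus strand) and chrX:47436586-47436791 (minus strand).
212-base array: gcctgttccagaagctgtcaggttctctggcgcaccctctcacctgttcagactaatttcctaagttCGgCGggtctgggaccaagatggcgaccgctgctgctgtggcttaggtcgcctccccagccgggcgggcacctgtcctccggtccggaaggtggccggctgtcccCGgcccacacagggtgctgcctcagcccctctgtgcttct
208-base array: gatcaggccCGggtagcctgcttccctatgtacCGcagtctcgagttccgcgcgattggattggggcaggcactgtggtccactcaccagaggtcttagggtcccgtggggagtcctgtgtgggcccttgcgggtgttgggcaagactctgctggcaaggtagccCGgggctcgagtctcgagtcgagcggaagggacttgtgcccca
206-base array: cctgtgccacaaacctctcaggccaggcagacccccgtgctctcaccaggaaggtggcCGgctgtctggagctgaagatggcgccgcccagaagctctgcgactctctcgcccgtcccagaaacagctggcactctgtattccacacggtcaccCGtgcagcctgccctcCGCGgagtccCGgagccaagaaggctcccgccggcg
They hold 12, 13 and 15 CpGs, and the sequence CCGG, at which the usual RRBS enzyme cuts, stands in them 5, 2 and 3 times. No sequence is printed for the 214-base and 204-base arrays. No repeat annotation was used, so the arrays are not assigned to a named repeat family.

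Tiles of 1 array were closer in level to each other than the single tiles were. The variance of levels between tiles was divided by the variance that read counts alone would give, a ratio that also grows with read depth. In the 212-base array it had a median of 2.63 over the samples (1.98 to 12.1), and in the 208-base array 2.19 (1.23 to 5.61). The ratio was higher in the 214-base array, with 4.84 (1.14 to 32.0), and in the 204-base array, with 4.04 (1.40 to 35.001). Group means of tiles of the 214-base array in iPSC ran from 19.8 to 61.1%. In these 2 samples, however, the ratio was only 2.69 and 2.32, from 2544 and 3358 reads over its 52 tiles. Among the single tiles this ratio was 50.4 (28.6 to 112). Reads from near-identical copies may not have a single place in the genome. How they were placed was not tested, so tiles of an array may share reads, and the counts of called tiles below are not counts of independent observations.

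The 5 arrays began at similar levels in fibroblasts and ended at different ones in pluripotent cells. A median over tiles was taken in each sample, and the mean of these medians with its SD over samples is given here. The 212-base array had 87.8% ± 0.482 in MEF female (n = 4) and 88.1% ± 0.762 in MEF male (n = 2). It had 85.4% ± 0.0538 in SSEA1- and 83.7% ± 0.923 in SSEA1+ (n = 2 each). In pluripotent cells it stood at 24.1% ± 0.671 in iPSC female (n = 2), 23.9% ± 0.410 in ESC female (n = 4) and 37.5% ± 0.208 in ESC male (n = 2). By sample these were 24.6 and 23.6% in iPSC, 23.8, 23.9, 23.5 and 24.5% in ESC female, and 37.3 and 37.6% in ESC male. The male samples lay above all other pluripotent samples, and the iPSC and ESC female samples overlapped.

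The 208-base array kept most of its methylation. Its median was 89.1% ± 0.550 in MEF female, 89.6% ± 0.11 in SSEA1- and 88.4% ± 0.323 in SSEA1+. It was 71.3% ± 0.0136 in iPSC female, 70.9% ± 0.693 in ESC female and 69.6% ± 0.902 in ESC male. In 109 of its 110 tiles the group mean was 60% or more in iPSC, ESC female and ESC male alike, and the exception, chr7:71745001-71746000, named after its values were seen, had 59.7, 59.4 and 63.8%. No tile of another array reached 60% in all 3 of these groups.

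The 206-base array fell between these 2, with 85.3% ± 0.498 in MEF female, 42.8% ± 1.24 in iPSC, 37.4% ± 0.855 in ESC female and 43.3% ± 2.97 in ESC male. The 204-base array had 84.5% ± 0.868, 44.9% ± 1.59, 38.8% ± 1.08 and 45.1% ± 3.45 in the same groups. The 214-base array had 82.7% ± 3.74, 37.0% ± 1.27, 38.2% ± 0.543 and 43.4% ± 0.265. For the 214-base array the fibroblast libraries themselves differed: MEF female 1 and 2 had 80.1 and 78.8%, and MEF female 3 and 4, which belong to the same strand set as the iPSC samples, had 85.8 and 86.0%. The difference between iPSC and MEF female was -45.7 points over all libraries and -48.9 within that set.

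**Figure D2:**
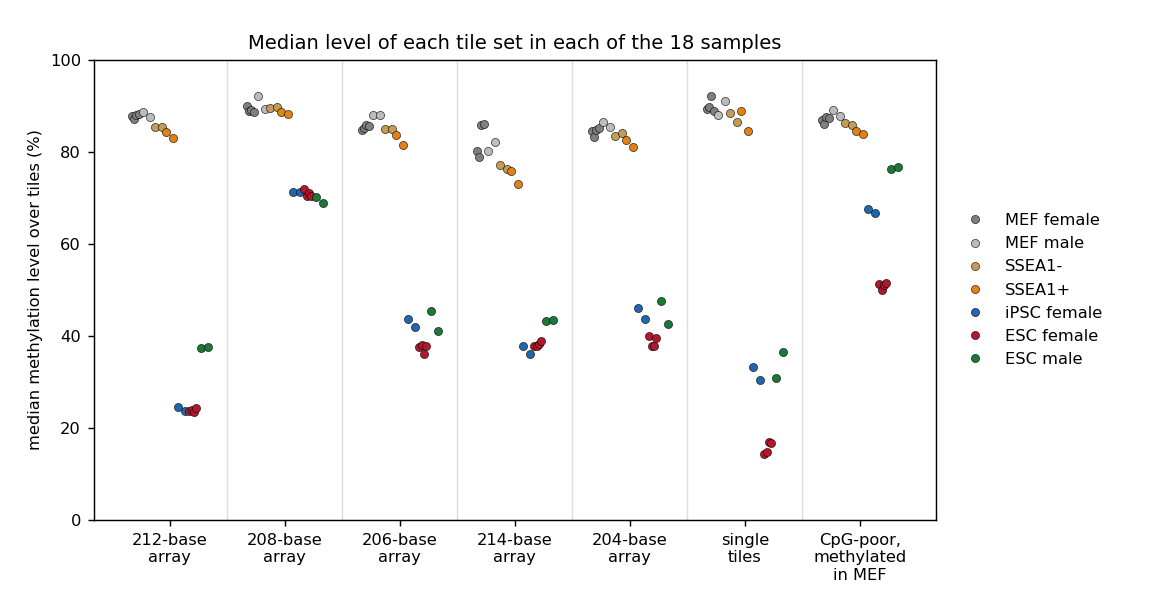
Median methylation level (vertical axis, percent) over the tiles of each array, the single tiles and the CpG-poor tiles methylated in fibroblasts, with 1 point for each of the 18 samples, coloured by group. Fibroblast and SSEA1 samples lie at 73.1% or more in every array. The pluripotent samples lie at 23.5 to 24.6% (ESC male 37.3 and 37.6%) in the 212-base array, at 69.0 to 71.9% in the 208-base array and at 36.1 to 47.6% in the other arrays.

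Tiles that were methylated in fibroblasts but had fewer CpGs read, called CpG-poor here, served for comparison. The 12238 autosomal tiles with fewer than 30 CpGs at the same MEF threshold started at 87.0% ± 0.752 in MEF female and stood at 67.1% ± 0.637 in iPSC, 51.0% ± 0.662 in ESC female and 76.6% ± 0.315 in ESC male. In ESC male the CpG-poor tiles were higher than every array, whereas in ESC female and in iPSC the 208-base array lay above them.

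Few members were unmethylated in pluripotent cells. The group mean was below 20% in 24 members in iPSC (4.74%), 32 in ESC female (6.32%) and 7 in ESC male (1.38%). In iPSC the count was 46 when iPSC female 1 was left out. The shares were 3.78, 5.97 and 0.744% among the CpG-poor tiles, and 50.7, 55.2 and 48.9% among all autosomal tiles. The group mean was 60% or more in 112, 111 and 114 members (22.1, 21.9 and 22.5%), against 62.3, 33.9 and 73.4% of the CpG-poor tiles. The other 370, 363 and 385 members stood between 20 and 60%. In SSEA1- all 506 and in SSEA1+ 503 members had 60% or more.

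At single CpGs of the printed units, levels summed over all copies showed the same loss, with differences between neighbouring CpGs. In the 212-base unit the CpGs at positions 68 and 71 (counted from 1 at the 5′ end) are 3 bases apart. Position 68, read in 713 copies, had 94.2% ± 0.424 in MEF female (n = 4), 34.2% ± 0.0968 in iPSC (n = 2), 30.7% ± 0.576 in ESC female (n = 4) and 44.4% ± 0.638 in ESC male (n = 2). Position 71, read in 682 copies, was lower in each of these groups, with 82.9% ± 1.37, 23.9% ± 0.8997, 20.5% ± 0.365 and 36.6% ± 0.189. At both positions the iPSC samples lay above the ESC female samples and below the ESC male samples. At position 173 ESC male was again the highest of the 3, with 31.3% ± 1.38, but iPSC had a lower mean (22.1% ± 2.15) than ESC female (25.05% ± 1.27). In SSEA1+ this position had 87.4% in 1 sample and 69.5% in the other, with no fewer than 534 reads in any sample.

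The CpGs of the 208-base unit at positions 10, 34 and 166 had 70.03% ± 0.689, 73.8% ± 0.736 and 71.7% ± 1.35 in ESC female, and 89.9% ± 0.532, 85.1% ± 0.929 and 91.3% ± 0.522 in MEF female. Position 34, the lowest of the 3 in fibroblasts, was thus the highest in ESC female. In ESC male it was again the lowest, with 68.4% ± 0.255 against 70.6% ± 1.84 and 69.7% ± 1.04. In the 206-base unit the ESC female level was 33.0% ± 0.712 at position 155 and 49.9% ± 0.630 at position 181, and the MEF female level 78.0% ± 0.401 and 93.9% ± 0.649. The order of these 2 positions was the same in all 7 groups.

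**Figure D3:**
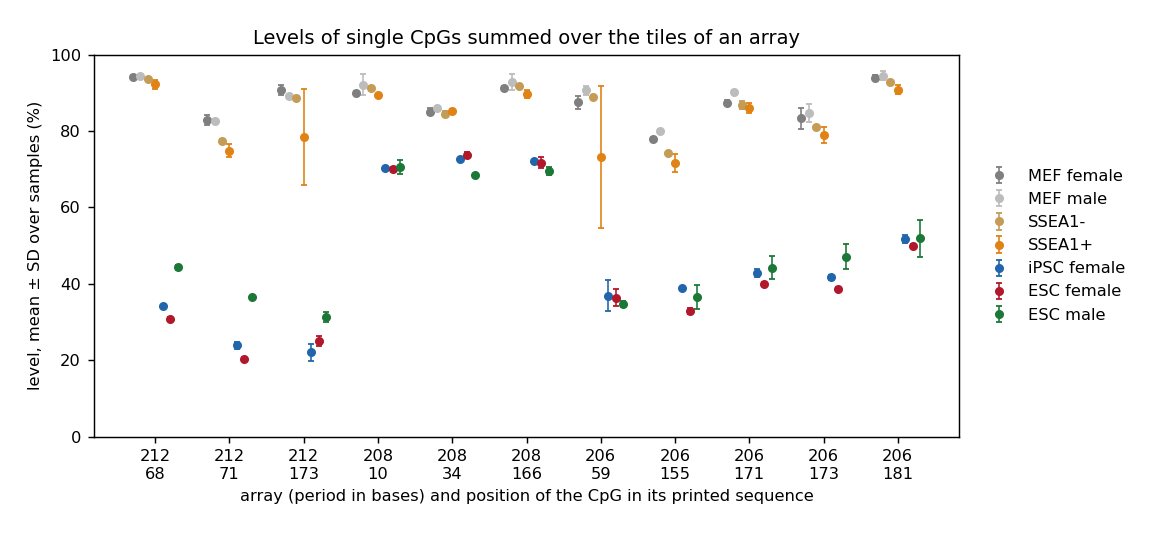
Methylation level of single CpGs (vertical axis, percent, mean ± SD over the samples of a group) at the capitalised positions of the 3 printed units, summed over the tiles of each array. In the 212-base unit ESC male lies above ESC female at positions 68, 71 and 173, and in the 208-base unit the means of the pluripotent groups lie between 68.4 and 73.8%.

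The loss between the sorted reprogramming cells and iPSC was tested tile by tile with a quasi-binomial model over all 33545 tiles (Benjamini-Hochberg adjustment), and a tile was called when it differed by 20 points or more with an adjusted p below 0.05. In iPSC female against SSEA1+, 401 of the 506 members were lower and none was higher, against a background of 20.1% of all tiles lower and 3.68% higher. The calls took in all 231 tiles of the 212-base array, 66 of 67, 51 of 52 and 19 of 20 tiles of the 206-base, 214-base and 204-base arrays, and 22 of the 26 single tiles. In the 208-base array 12 of 110 tiles were called, and its median difference was -17.0 points, against -59.4 points in the 212-base array. Without the 20-point minimum 503 members were lower and none higher (background 31.2% lower and 35.8% higher), among them all 110 tiles of the 208-base array. Among the CpG-poor tiles methylated in fibroblasts 41.1% were called lower. The samples of both groups were separate in each of the 401 tiles, as in every called member of the other comparisons. Separation therefore adds nothing to these calls. The 2 groups lie in different strand sets, which the model could take up only through the MEF samples, and with that term 395 members were lower. At CpGs read in all samples 33 of the 110 tiles of the 208-base array were called, against all 221 tiles of the 212-base array that could be read.

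**Figure D4:**
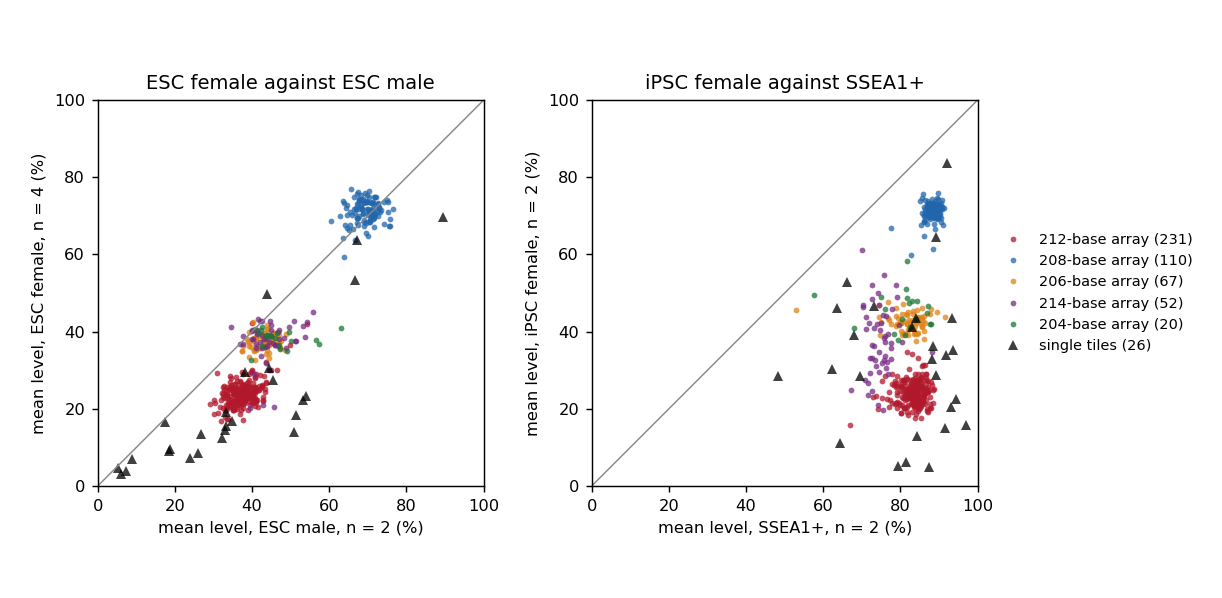
Mean methylation level of each of the 506 tiles in 2 pairs of groups (both axes in percent, with n as labelled), coloured by array, and the diagonal of equal levels. Left, the 212-base array lies below the diagonal and the 208-base array on both sides of it. Right, all 506 tiles lie below the diagonal, with the 208-base array nearest to it.

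Between the 2 sorted populations the differences were small. In SSEA1+ against SSEA1- no member was called in either direction by the quasi-binomial test or by limma (background 0.793% lower and 0.516% higher), and 26 members were lower and 2 higher at an unadjusted p under 0.05. The sample medians over all members were 84.7 and 83.7% in SSEA1+ and 85.5 and 85.6% in SSEA1-, a difference of -1.36 points that was larger than the spread between samples. It had the same sign in all 5 arrays, from -1.28 to -2.33 points, and was -1.74 points in the CpG-poor tiles methylated in fibroblasts. All these tiles were read in the same samples, so the signs are not separate observations. Only chr7:53049001-53050000, a single tile, passed the quasi-binomial test without the 20-point minimum (background 1.18% lower and 1.03% higher), with 63.6% ± 2.79 in SSEA1+ and 76.1% ± 3.51 in SSEA1- (adjusted p = 0.018). It was named after its values were seen. The lowest means in SSEA1+ rested on 1 library: chr10:80616001-80617000, near the transcription factor gene Zbtb7a, had 70.9% in SSEA1+ 1 and 25.7% in SSEA1+ 2, the shallower of the pair, and chr1:56155001-56156000, in the 206-base array, had 68.5 and 37.5%. At chr2:109997001-109998000, the third of these tiles, both samples were low, with 60.6 and 54.6%. With SSEA1+ 1 left out, 2 members were called lower.

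ESC female and ESC male samples, which share a strand set, differed in most tiles of the 212-base array, though by less than 20 points. With the 20-point minimum 13 members were lower in ESC female and none higher (background 26.8% lower and 0.0358% higher), so that the share of members called was below that of all tiles. Without the minimum, a choice made after seeing the data, 299 members were lower and 1 was higher, against 38.8% of all tiles lower and 1.26% higher. These were 219 of the 231 tiles of the 212-base array, none of the 110 of the 208-base array, 34 of 67, 20 of 52 and 12 of 20 of the others, and 14 of the 26 single tiles. The median difference was -13.5 points in the 212-base array and 1.99 in the 208-base array. In the CpG-poor tiles it was -21.8 points, and 52.9% were called lower with the minimum. Without the minimum 68.9% of the CpG-poor tiles were lower, against 59.1% of the members.

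The number of these calls depended on the test and on 1 library. Limma on log ratios called 129 members lower without the minimum, of which 111 were tiles of the 212-base array. Leaving out ESC male 1 lowered the count to 172, and raised that with the minimum from 13 to 24. When only CpGs read in all 18 samples were used, 443 members remained, with a median of 7 such CpGs, and 57 were lower by 20 points or more. The 212-base array then had 25.4% ± 0.292 in ESC female and 42.4% ± 0.851 in ESC male, and the 208-base array 71.3% ± 0.417 and 70.6% ± 0.921. With all its CpGs used, 230 of the 231 tiles of the 212-base array had a lower mean in ESC female, whatever the p. The share with a lower mean was not counted over all tiles, and tiles of an array may share reads. Shares of all tiles were not counted with limma, with ESC male 1 left out or at shared CpGs, so those counts have no background.

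The single tiles held the largest differences between ESC female and ESC male. Lines and cultures are not labelled, so sex cannot be told apart from them. At chr10:80049001-80050000 the ESC female samples had 11.9, 12.8, 13.8 and 17.2%, and the ESC male samples 50 and 51.9% (difference -37.0 points, adjusted p = 8.58e-07). At chr7:52632001-52633000 the ESC female samples had 11.8, 22.8, 17.1 and 21.6%, and the ESC male samples 51.7 and 51.3%. At chr10:80297001-80298000, downstream of the start of Oaz1, which encodes an inhibitor of polyamine synthesis, the values were 19.5, 23.6, 20.8 and 25.3% against 45.4 and 60.8%. In all 3 tiles the male and female samples were separate.

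Between iPSC female and ESC female, 6 members were higher in iPSC and 2 were lower (background 11.2% higher and 0.247% lower), and with strand set as a term in the model 1 member was called in each direction. Both groups are female and lie in different strand sets, which could be compared only through the MEF samples. Without the 20-point minimum 50 members were higher and 10 lower (background 51.1% higher and 0.766% lower), of which 4 in each direction were tiles of the 212-base array. These counts were 4 higher and 5 lower with strand set in the model, 21 and 5 without iPSC female 1, and 16 and 5 with limma. Without iPSC female 2 they were 39 and 3. At CpGs read in all samples, however, the median of the 212-base array was 29.8% ± 0.0993 in iPSC and 25.4% ± 0.292 in ESC female. The samples of both groups were separate there. With all CpGs used, the 206-base array was higher in iPSC by 5.34 points and the 204-base array by 6.09 points, and the single tiles by 16.02 points, each with no overlap between samples. The CpG-poor tiles methylated in fibroblasts were higher by 16.2 points and all autosomal tiles by 8.03 points, also without overlap. Of the CpG-poor tiles 20.6% were called higher and 0.351% lower with the 20-point minimum. The 4 single tiles that were called higher had 43.4% ± 3.68 in iPSC and 12.5% ± 1.42 in ESC female at chr9:21599001-21600000 (adjusted p = 4.33e-07), 43.6% ± 4.38 and 13.9% ± 2.33 at chr10:80049001-80050000, 52.8% ± 2.60 and 23.4% ± 0.532 at chr7:7230001-7231000, and 46.6% ± 4.59 and 22.3% ± 2.62 at chr10:80297001-80298000. At the 10 CpGs of chr7:7230001-7231000 that all samples share, the difference was 19.4 points. The other 2 were tiles of the 214-base array, chr4:54460001-54461000 with 24.0 points and chr14:93615001-93616000. The difference of 34.1 points at the latter was the largest of all, but its iPSC samples had 43.4 and 65.7%, and at shared CpGs the difference was 7.17 points (adjusted p = 0.64).

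Of the 2 members lower in iPSC, 1 kept the difference at shared CpGs. At chr17:84668001-84669000 the iPSC samples had 39.0 and 33.8%, the ESC female samples 63.6, 60.5, 65.2 and 65.2%, and the ESC male samples 63.7 and 70.8%. The iPSC samples lay below all ESC samples (-27.3 points against ESC female, adjusted p = 4.23e-05), and at 8 shared CpGs the difference was -21.2 points. At chr19:39323001-39324000 the difference of -21.4 points fell to -5.80 at shared CpGs (adjusted p = 0.548).

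In iPSC female against ESC male, which differ in sex and in strand set, 12 members were lower and none higher (background 9.16% lower and 0.614% higher). The 12 calls became 7 with strand set in the model, 29 (28 lower) at CpGs read in all samples, and 19 to 21 when iPSC female 1, ESC male 1 or ESC male 2 was left out. Without the 20-point minimum 215 (42.5%) were lower and 1 higher (background 20.8% lower and 24.6% higher). Among the CpG-poor tiles methylated in fibroblasts the share lower was similar, with 41.5%. Of the 215 members, 199 were tiles of the 212-base array. With strand set in the model 74 were lower, of which 62 were in that array. Limma called 53 lower (49 in that array), and the quasi-binomial test called 101 lower without ESC male 1 and 123 without iPSC female 2. Besides chr17:84668001-84669000, the largest differences were -27.6 points at chr3:66438001-66439000 in the 214-base array and -27.1 points at chr12:18352001-18353000 in the 212-base array. This comparison shares its samples with the preceding ones.

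The 26 single tiles differed widely from each other. Their median was 90.02% ± 1.47 in MEF female, 31.8% ± 2.08 in iPSC, 15.8% ± 1.31 in ESC female and 33.7% ± 4.03 in ESC male. In 6 of them all 3 pluripotent groups were below 20%. The largest difference between iPSC and SSEA1+ was at chr5:93371001-93372000, the tile with the most CpGs (57), which lies 44.0 kb downstream of the nearest start that could be placed, that of Shroom3, a regulator of epithelial cell shape. It had 92.8, 90.6, 92.7 and 93.7% in MEF female, 90.03 and 88.7% in SSEA1-, and 85.4 and 89.6% in SSEA1+. It had 4.18 and 5.60% in iPSC, 7.18, 4.67, 3.31 and 0% in ESC female, and 10.9 and 3.63% in ESC male. The value of 0% in ESC female 4 came from 475 reads, which allow a level of up to 0.632% by counting error alone. Every pluripotent sample lay far below every other sample (iPSC against SSEA1+ -82.6 points, adjusted p = 8.92e-10). The next largest differences in this comparison were at chr6:48547001-48548000 (-81.2 points), upstream of the start of Zfp775, and at chr5:143549001-143550000 (-76.5 points). At chr6:48547001-48548000 the iPSC samples had 12.8 and 18.7%, the ESC female samples 9.42, 6.51, 6.86 and 11.2%, and the ESC male samples 26.8 and 24.9%. At the 6 CpGs of that tile read in all samples the iPSC mean was 34.0% and the ESC female mean 8.05%.

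Low levels in all 8 ESC and iPSC samples were also found at chr8:64028001-64029000 (5.14% ± 0.479 in iPSC), chr7:4982001-4983000 (6.28% ± 1.10) and chr12:72419001-72420000 (13.0% ± 0.363). The last lies 8.13 kb downstream of the start of Dact1, a modulator of Wnt signalling. At the other end chr12:30687001-30688000 had 83.7% ± 3.08 in iPSC, 69.6% ± 0.7005 in ESC female and 89.6% ± 4.11 in ESC male, the only single tile at 60% or more in all 3 groups, named after its values were seen. The 5 members with the highest lowest value over all 18 samples all belonged to the 208-base array.

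**Figure D5:**
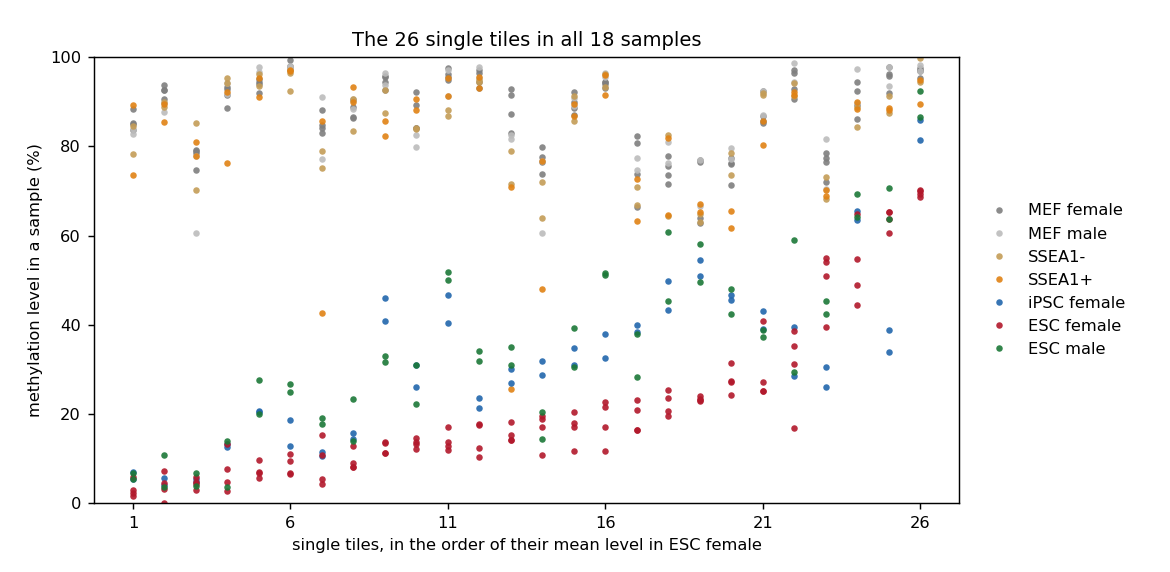
Methylation level (vertical axis, percent) of each of the 26 single tiles in each of the 18 samples, with tiles ordered along the horizontal axis by their mean in ESC female and points coloured by group. Fibroblast and SSEA1 samples lie at the top for most tiles, and the ESC female samples have a lower mean than the ESC male samples in 25 of the 26.

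Only single tiles could be set against gene starts. Promoters of RefSeq were placed on the CpGs of the files by the exact spacing of at least 10 CpGs, without converting coordinates. Each promoter was searched for only on its own chromosome, and 6128 promoters of 5502 genes had exactly 1 place there. All 6109 pairs of neighbours kept their order. As a check each promoter was also tried on 1 chromosome not its own, where 3 promoters found a single place. For these placements the rest of the genome was not searched. A start inside one of several near-identical copies has no single place, so the method could not place starts in the 480 tiles of arrays. A placed start lay inside 2 of the 26 single tiles (7.69%) and inside 43.4% of the 5923 other dense tiles. Within 5 kb of a start lay 3 single tiles (11.5%) and 55.7% of the other dense tiles, and the median distance was 32.8 kb and 0.165 kb. No placed gene of the lists for germline (7 of 54 placed), pluripotency (5 of 32), epithelial (2 of 15) and imprinted genes (5 of 20) had its start in or within 5 kb of a member, and none of the 14 fibroblast genes could be placed.

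The 2 single tiles with a gene start are shown because they are the only members with a promoter placed at 1 position of its own chromosome. The first, chr11:87430001-87431000, holds the start of Hsf5, a member of the heat shock factor family that is needed in the male germline. The second, chr7:7230001-7231000, holds that of Vmn2r29, a receptor gene of the vomeronasal organ with many close relatives, whose reads are therefore uncertain. The 250 bases before each start are printed from RefSeq (GRCm38.p6, chr11:87616914-87617163, plus strand, and chr7:7278290-7278539, minus strand), with capitals for CpGs that reached 5 reads in at least 1 sample.
Hsf5: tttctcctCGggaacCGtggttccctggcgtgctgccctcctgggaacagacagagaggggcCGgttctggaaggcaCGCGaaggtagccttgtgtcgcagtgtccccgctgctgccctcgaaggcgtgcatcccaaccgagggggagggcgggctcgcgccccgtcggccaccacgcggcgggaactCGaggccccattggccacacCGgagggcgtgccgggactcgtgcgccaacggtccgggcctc
Vmn2r29: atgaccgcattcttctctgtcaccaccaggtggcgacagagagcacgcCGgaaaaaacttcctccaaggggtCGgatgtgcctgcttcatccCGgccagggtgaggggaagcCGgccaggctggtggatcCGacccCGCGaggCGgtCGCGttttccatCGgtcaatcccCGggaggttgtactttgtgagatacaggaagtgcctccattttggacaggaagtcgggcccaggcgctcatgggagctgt
The Hsf5 stretch holds 27 CpGs, of which 7 were read, and the Vmn2r29 stretch 17, of which 12 were read.

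The Hsf5 tile lost its methylation in every pluripotent sample. It had 88.1, 84.8, 84.2 and 83.1% in MEF female, 77.1 and 91.1% in MEF male, and 75.1 and 78.9% in SSEA1-. The SSEA1+ samples had 85.8 and 42.7%, the lower value coming from SSEA1+ 2. It had 11.6 and 10.7% in iPSC, 10.8, 5.45, 4.32 and 15.3% in ESC female, and 17.7 and 19.15% in ESC male. All 8 pluripotent samples lay below all others (iPSC against SSEA1+ -53.1 points, adjusted p = 2.17e-05). Within the printed stretch alone the levels were 79.3 to 85.5% in MEF female and 4.76 to 14.7% in ESC female, from 20 to 184 reads per sample, and SSEA1+ 2 had no CpG with 5 reads there.

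The Vmn2r29 tile had 70.05% ± 7.72 in MEF female, 63.9% ± 1.31 in SSEA1- and 66.2% ± 1.13 in SSEA1+. It had 52.8% ± 2.60 in iPSC, 23.4% ± 0.532 in ESC female and 53.9% ± 6.13 in ESC male. The ESC female samples were 30.5 points below the ESC male samples (adjusted p = 1.23e-06), and the iPSC and ESC male samples overlapped. Within the printed stretch MEF female 1 and 2 had 47.7 and 53.4%, the SSEA1- samples 27.5 and 33.6%, and the SSEA1+ samples 42.6 and 15.5%, all below the values of the whole tile. MEF male 1 was also lower in the stretch, with 62.3% against 77.0%, but MEF male 2 was higher, with 72.1% against 66.5%. There the ESC female level was 15.98 to 22.4% and the ESC male level 35.9 and 37.7%, while in the iPSC samples and in MEF female 3 and 4 it rested on 1 CpG.

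At the MEF threshold itself the values ran on without a gap. The members nearest to it, chr12:110272001-110273000 and chr8:64028001-64029000, had 60.6% in their lowest MEF sample. The dense tiles nearest below it, chr7:88020001-88021000 and chr6:48388001-48389000, had 59.5 and 57.4%, and their means in ESC female were 3.68 and 3.54%.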

How the data were processed

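RRBS was run on 18 samples in 7 groups. The deposited files give, per CpG and strand, counts of methylated and of all reads, which the authors made from reads on mm9, per the submitters' processing notes. The sources used here name no aligner or caller. A score that the authors deposited beside the counts was not used. The strands were added, and CpGs with at least 5 reads in a sample were summed in 1 kb tiles with at least 3 such CpGs in every sample. Levels were tested over 33545 tiles in a quasi-binomial model with 7 group means, moderated dispersion of at least 1, F tests and Benjamini-Hochberg adjustment (Python 3.11.15, numpy 2.4.6, scipy 1.17.1), with limma 3.58.1 (R 4.3.3) on log ratios as an alternative. The script was tested on simulated data. Alternatives were other read, CpG and MEF limits, a strand set term, a replicate block, each sample left out, and CpGs read in all samples. The tiles and gene lists were chosen with earlier results of these data known. Tiles were named by rule: the 3 largest called differences per comparison and direction, the 5 lowest in pluripotent and the 5 highest in all samples, the 3 lowest in each SSEA1 group, those nearest the MEF threshold, and those with a listed gene. Other tiles are marked as chosen after their values were seen. Same-numbered samples were checked for shared deviations. Counting error alone limits shallow tiles, and reads without molecular identifiers are not independent molecules.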

Additional observations from a re-analysis of the deposited data

Results flagged for a closer look

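In 66 sets of 4 samples (the named tiles and the medians over all members, each array and the single tiles, in MEF female and in ESC female), 1 sample stood apart from the other 3 by Dixon's criterion in 3 sets, and chance alone gives about 1 in 20. At chr8:64028001-64029000 MEF female 3 had 74.8%, and the other MEF female samples had 78.5 to 79.2%. At chr6:66957001-66958000, in the 208-base array, ESC female 1 had 74.4%, and the others had 70.2 to 70.6%. At chr19:22725001-22726000, in the same array, ESC female 2 had 77.5%, and the others had 71.3 to 72.0%.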

How the results depend on the processing

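Of 128 values under alternatives, 93 stayed within 1.5 times of the reported count, as did 192 of 198 with 1 sample left out. Except where only the minimum difference was dropped, shares of all tiles were not counted under alternatives, so those counts have no background. At 10 reads per CpG 178 members were left, with 18 below 20% in ESC female and 3 in ESC male, 4 calls in iPSC against ESC female and 139 against SSEA1+. At 20 or more CpGs there were 1794 members, of which 109, 127 and 21 were below 20% in iPSC, ESC female and ESC male, with 57 calls in iPSC against ESC female, 140 in ESC female against ESC male, 109 in iPSC against ESC male and 1307 in iPSC against SSEA1+. At 40 or more CpGs there were 87 members, with 5, 4 and 2 below 20% and 1, 2, 2 and 83 calls in the same order. At a MEF level of 50%, 13 members were below 20% in ESC male and 1 was called in SSEA1+ against SSEA1-. A strand set term left 2 calls in iPSC against ESC female and 7 against ESC male. Chosen after seeing the data, no minimum difference gave 60, 300, 216 and 1 calls (iPSC against ESC female, ESC female against ESC male, iPSC against ESC male, SSEA1+ against SSEA1-), and limma without it gave 21, 129 and 53 in the first 3. CpGs read in all samples gave 57 calls in ESC female against ESC male and 29 in iPSC against ESC male, and linking tiles at 12 CpGs gave 3 arrays. The stricter limits leave fewer tiles, and the cause of the other shifts was not tested.

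With 1 sample left out, the calls ranged from 6 to 9 in iPSC against ESC female, 13 to 24 in ESC female against ESC male (24 without ESC male 1), 12 to 21 in iPSC against ESC male (20 without iPSC female 1, 21 and 19 without ESC male 1 and 2), 0 to 2 in SSEA1+ against SSEA1- (2 without SSEA1+ 1) and 386 to 402 in iPSC against SSEA1+. Members below 20% ranged from 24 to 46 in iPSC (46 without iPSC female 1), 32 to 39 in ESC female and 6 to 8 in ESC male, and the members from 506 to 507. A lone sample is then assumed to vary like the other groups. With the replicate number as a block the calls were 8, 13, 12, 0 and 401, the same counts as without it. Same-numbered samples of the groups tested showed no sign of deviating together. Correlations ran from -0.0167 to 0.0363 over all tiles and from -0.0745 to 0.0233 over the members. This does not exclude that the numbers pair samples. Depth limits shallow tiles, and the SSEA1+ values rest partly on SSEA1+ 2, with 11833113 reads.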

Other observations

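The arrays also had copies on the X chromosome, which were no members because only autosomal tiles were taken. Of the dense X tiles, 51 shared the CpG spacing of an array: 21 of the 212-base, 12 of the 206-base, 11 of the 214-base, 5 of the 208-base and 2 of the 204-base array. All 51 reached 60% in every MEF sample. The X copies of the 212-base array had a median of 87.9% in MEF female and 87.8% in MEF male, 24.5% in iPSC, 23.6% in ESC female and 38.1% in ESC male. Those of the 208-base array had 70.1, 69.7 and 68.6% in the same 3 pluripotent groups. The X copies and the autosomal copies of the same array therefore had similar medians, and as reads of near-identical copies may be exchanged between them, the X levels are not separate observations. No difference between X and autosomal copies was tested.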
